A study of Mus musculus with 9 samples.

Results

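The transcription factors that direct plasmacytoid dendritic cell (pDC) fate were followed here across mouse splenic DC subsets. The group holds 9 of the 39179 genes in the deposited count table, taken by gene name. It consists of the E proteins Tcf4, Tcf3 and Tcf12, the ETS factors Spib and Ets1, the zinc finger factors Bcl11a and Zeb2, the co-repressor Cbfa2t3 and the E protein inhibitor Id3. All 9 had enough reads for a test, as did 13819 genes in all.

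The samples are cDC1, cDC2 and pDC from spleens of C57BL/6J mice in the steady state, without any stimulus, and their polyadenylated RNA was sequenced. The labels call the conventional subsets CD8pos cDC1 and CD8neg cDC2. Each subset has 3 libraries, each made from cells sorted out of pooled spleens of 15 to 17 mice, and the study's methods give mice of 6 to 12 weeks. Before the sort, cells were depleted with antibodies that included those against CD3, Thy-1, Ly6G/Ly6C and the erythroid antigen TER-119, so a library describes what was left after depletion and gating, averaged over the pool. No allele or agent separates the groups, which differ only in the sorted cell.

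E proteins are basic helix-loop-helix (HLH) factors that bind DNA as dimers at E-boxes. Id proteins lack the basic region, pair with E proteins and keep them off DNA, so the balance of E and Id proteins sets how much E protein can act. Tcf4 is the E protein on which pDC depend most, and Id2 is known for its role in cDC1. Spib and Spi1, which encodes PU.1, are closely related ETS factors that read similar sites. Zeb2 and Cbfa2t3 are both known as repressors of Id2 on the way to pDC, and Bcl11a is known to be needed for pDC.

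Promoters of members with opposite patterns are shown first. Spib and Zeb2 were highest in pDC and Cbfa2t3 was lowest there. The RefSeq windows used here, on GRCm38.p6, numbered 13 and covered 7 of the 9 members, without Tcf4 and Ets1. The 3 below lie wholly upstream of the exons of their own gene. For Zeb2 and Cbfa2t3, which have several, the window farthest upstream is shown. Each is the 250 bases before the transcript start, read 5′ to 3′ on the minus strand, on which all 3 genes lie. The Spib window is chr7:44532072-44532321, the Zeb2 window is chr2:45117443-45117692 and the Cbfa2t3 window is chr8:122699110-122699359. Capitals mark the E-box CANNTG and GAGGAA, the core of the PU-box, each searched on both strands. Other forms of ETS site were not searched, so unmarked letters can still hold them.
Spib promoter: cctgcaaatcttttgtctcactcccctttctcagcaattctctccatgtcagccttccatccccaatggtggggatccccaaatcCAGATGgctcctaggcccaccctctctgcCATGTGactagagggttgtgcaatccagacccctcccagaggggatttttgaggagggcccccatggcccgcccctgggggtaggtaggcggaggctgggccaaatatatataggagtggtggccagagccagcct
Zeb2 promoter: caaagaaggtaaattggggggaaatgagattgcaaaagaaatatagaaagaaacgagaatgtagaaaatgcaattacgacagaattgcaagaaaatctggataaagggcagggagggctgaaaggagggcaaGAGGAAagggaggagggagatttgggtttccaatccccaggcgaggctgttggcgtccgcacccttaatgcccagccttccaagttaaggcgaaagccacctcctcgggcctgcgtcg
Cbfa2t3 promoter: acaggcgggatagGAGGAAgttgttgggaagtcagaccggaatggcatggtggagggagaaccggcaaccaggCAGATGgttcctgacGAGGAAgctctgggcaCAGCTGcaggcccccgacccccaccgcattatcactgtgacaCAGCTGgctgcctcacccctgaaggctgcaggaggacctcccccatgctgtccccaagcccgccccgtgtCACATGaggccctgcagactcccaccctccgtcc
The Spib window held 2 E-boxes, which begin 165 and 136 bases before the start, and no GAGGAA. The Zeb2 window held no E-box and 1 GAGGAA, 118 bases before the start. The Cbfa2t3 window held 4 E-boxes, which begin 177, 146, 104 and 34 bases before the start, and 2 GAGGAA, at 237 and 162 bases. The other Cbfa2t3 window held 1 E-box, 64 bases before its start, and no GAGGAA, and the 3 other Zeb2 windows each held 1 GAGGAA and no E-box. The motifs do not overlap each other in these windows. Of 32851 promoter windows of this length, 66.2% held CANNTG and 23.3% held GAGGAA, so a match describes the letters only.

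Libraries held between 15806597 and 32453789 counts on genes, with replicate 3 the shallowest in every subset, and a floor of 3 counts corresponds to 0.0908 to 0.203 CPM by counting error alone. Values are CPM, read counts relative to the library's total after TMM scaling, and tests are edgeR's quasi-likelihood test with p-values adjusted over all 13819 genes. The labels held up against defining markers. Each of 8 pDC markers was higher in pDC than in either conventional subset, Siglech averaged 4752 CPM (SD 394, n = 3) in pDC against 17.0 (5.59) in cDC2 and 27.1 (6.27) in cDC1. Of 8 cDC1 markers, 7 were lower in cDC2 than in cDC1, and all 8 cDC2 markers were higher in cDC2. Some of these markers were also high in pDC. Of the cDC2 markers, 5 were higher and 2 lower in pDC than in cDC1. Against cDC2, 3 of them (Cd4, Cd209a and Clec10a) were higher in pDC and 4 lower. All 8 cDC1 markers were lower in pDC than in cDC1. Against cDC2, 3 of these (Clec9a, Cd8a and Cadm1) were higher in pDC and 5 lower. Replicate 3 stood apart in all 3 subsets, where 10 genes of the immediate-early response, which handling of cells can induce, summed to 3990 CPM in pDC, 6003 in cDC2 and 6180 in cDC1, against 1565 to 3433 in the other 6 libraries. These genes also moved with the subset. In pDC 4 of the 10 were lower than in cDC1 and 4 lower than in cDC2, with medians of -1.48 and -1.51 on the log2 scale, and the fit with the replicate number as a block gave 8 lower in each comparison and 1 (Jun) higher than in cDC1. Their part in the members' differences was not tested. Same-numbered libraries carry the same date code. Changes without replicate 3, or without any single library, are given where they alter a result. In bulk RNA, fewer cells of a type and less RNA per cell cannot be told apart.

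Most members were far higher in pDC than in either conventional subset. Against cDC1, 7 of 9 rose (Tcf4, Tcf12, Spib, Bcl11a, Zeb2, Id3 and Ets1), 1 fell (Cbfa2t3) and Tcf3 did not pass the test. The same counts, with the same genes, were found against cDC2. Among all genes tested, 24.3% were higher and 24.4% lower in pDC relative to cDC1, and 22.5% were higher and 23.3% lower than in cDC2. The members' median log2 fold change was 4.29 against cDC1 and 2.56 against cDC2, where all genes had medians of 0.02 and -0.01. In 7 members every pDC library lay above all 6 conventional libraries, which held for 21.3% of all genes. Every pDC library lay below them in 1 member, Cbfa2t3, and in 20.0% of all genes. The pDC comparisons share the pDC libraries, so their counts are not independent. Without all replicate 3 libraries the counts stayed at 7 higher and 1 lower in both comparisons.

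**Figure D1:**
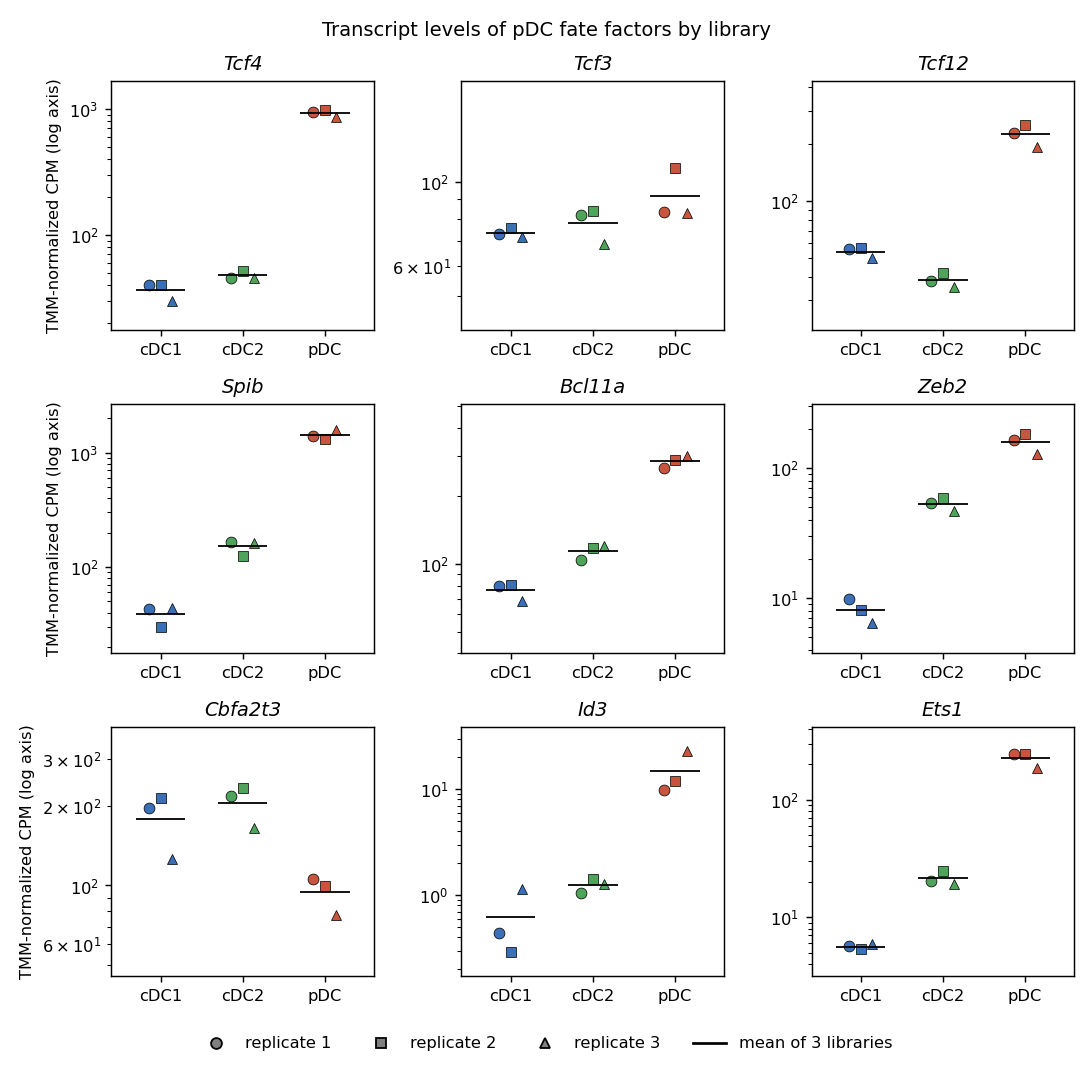
Level of each member in the 9 libraries, in TMM-normalized CPM on a log axis whose range differs between panels. Points are libraries, shaped by replicate number, and lines are means of 3. The pDC libraries lie above all others in 7 panels, below all others for Cbfa2t3, and close to the rest for Tcf3.

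The conventional subsets differed from each other as well. Spib, Bcl11a, Zeb2 and Ets1 were higher in cDC2 than in cDC1 (4 of 9), Tcf12 was lower (1 of 9), and Tcf4, Tcf3, Cbfa2t3 and Id3 did not pass the test. Here 12.7% of all genes were higher and 11.7% lower in cDC2. All 4 that rose stood in the order cDC1, cDC2, pDC with no overlap between subsets, and for each of them each step passed the test. Tcf4 had the same order without overlap, but its step from cDC1 to cDC2 did not pass. The share of all genes in this order was not counted.

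**Figure D2:**
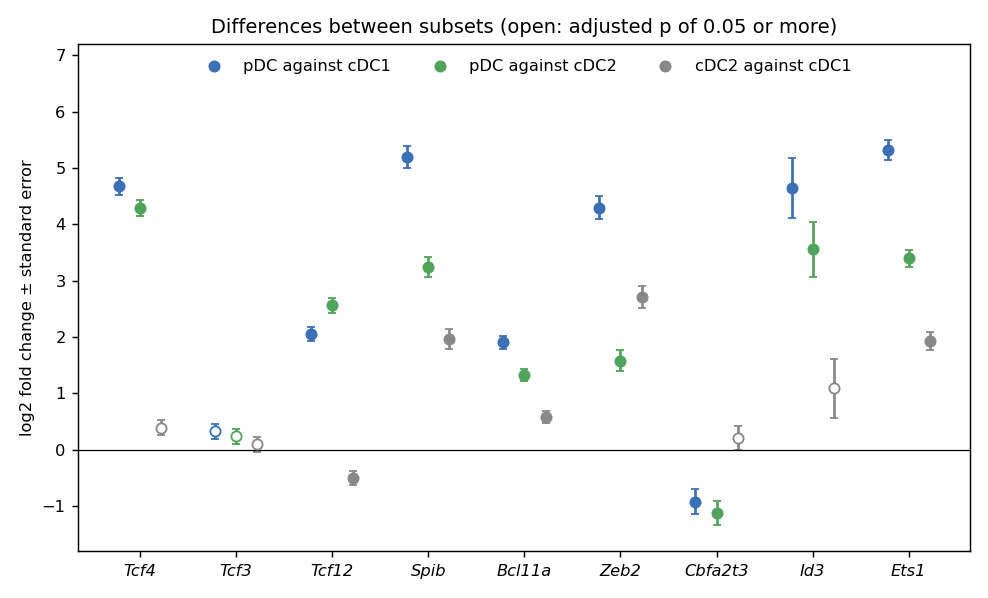
Log2 fold changes of the 9 members with standard errors from edgeR, for pDC against cDC1 (blue), pDC against cDC2 (green) and cDC2 against cDC1 (grey). Open points did not pass an adjusted p of 0.05. The grey points rise above 0 with a filled mark only for Spib, Bcl11a, Zeb2 and Ets1, and Cbfa2t3 alone lies below 0 in both pDC comparisons.

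Among the E proteins, Tcf4 (chromosome 18, 69343356 to 69689079, plus strand; ENSMUSG00000053477) separated the subsets most. Its level was 942, 980 and 861 CPM in pDC replicates 1, 2 and 3, 39.7, 39.8 and 29.5 CPM in cDC1 and 45.6, 52.0 and 45.0 CPM in cDC2. Every pDC library was far above every conventional library, and the lowest conventional value was cDC1 replicate 3. Tcf4 was 25.5-fold higher in pDC than in cDC1 (log2 fold change 4.67 ± 0.15 SE, edgeR adjusted p = 3.35e-08) and 19.5-fold higher than in cDC2 (4.29 ± 0.15, adjusted p = 7.28e-08). Of all genes tested, 5.36% differed more between pDC and cDC1. The step from cDC1 to cDC2 was small. It came to 0.39 ± 0.13 on the log2 scale without overlap of the libraries (edgeR adjusted p = 0.0585), and when the replicate number entered as a block its adjusted p was 0.00570.

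Tcf3 (chromosome 10, 80409514 to 80433647, minus strand; ENSMUSG00000020167), the E protein best known from lymphocyte development, had the smallest fitted differences of the 9 members. Its values were 72.8, 75.4 and 71.6 CPM in cDC1, 81.8, 83.7 and 68.7 in cDC2, and 83.2, 109 and 82.8 in pDC. The cDC2 range overlapped with those of both other subsets, while within each of the 3 replicate numbers the pDC library was the highest. The difference between pDC and cDC1 was 0.32 ± 0.13 on the log2 scale (edgeR adjusted p = 0.0717). It passed the threshold with the replicate block (0.31, adjusted p = 0.0172) and without pDC replicate 3 (0.39, adjusted p = 0.0450). Between pDC and cDC2 it was 0.23 ± 0.13 (edgeR adjusted p = 0.190).

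Tcf12 (chromosome 9, 71842688 to 72111871, minus strand; ENSMUSG00000032228), the E protein that often pairs with the other two, rose in pDC from a different base. Its values were 230, 254 and 193 CPM in pDC, 55.9, 56.7 and 50.4 in cDC1, and 37.9, 41.8 and 35.4 in cDC2. No subsets overlapped, and cDC2 was the lowest. The pDC level was 4.15-fold that of cDC1 (log2 2.05 ± 0.13, edgeR adjusted p = 1.11e-06) and 5.89-fold that of cDC2 (2.56 ± 0.13, adjusted p = 3.31e-07). Tcf12 was the only member lower in cDC2 than in cDC1 (-0.50 ± 0.13, edgeR adjusted p = 0.0154). That call was close to the threshold: it was lost without cDC1 replicate 1 (adjusted p = 0.0584), cDC1 replicate 2 (0.0590) or cDC2 replicate 1 (0.0585), with log2 values between -0.50 and -0.47, and when libraries were scaled by their totals alone (-0.39, adjusted p = 0.0654).

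Levels per kilobase of exon allow the E proteins to be set against each other. On this scale Tcf3 made up 79.0% ± 1.21 (SD, n = 3) of the summed E protein level in cDC1 and 82.1% ± 0.96 in cDC2, and Tcf4 only 5.76% ± 0.76 and 7.40% ± 0.51. In pDC, Tcf4 was the leading E protein transcript with 47.8% ± 2.23, ahead of Tcf3 with 31.8% ± 2.31 and Tcf12 with 20.4% ± 1.00. The summed level was 71.1 ± 7.52 CPM per kilobase in pDC, 23.0 ± 0.86 in cDC1 and 23.5 ± 2.30 in cDC2. These shares depend on the length used, since Tcf4 has 62 annotated transcripts that together cover 27382 bases of exon, and its longest transcript has 8577. With the longest transcript as the length, the Tcf4 share was 61.9% in pDC, 14.6% in cDC2 and 11.2% in cDC1, and the leading transcript of each subset was unchanged. Counts per gene do not tell isoforms apart.

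Id3 (chromosome 4, 136143497 to 136145755, plus strand; ENSMUSG00000007872), an Id protein, had the lowest mean of the members in both conventional subsets per kilobase of exon. In cDC1 the libraries of Zeb2 overlapped with those of Id3. Its read counts were 12, 7 and 17 in cDC1, 33, 41 and 24 in cDC2, and 322, 236 and 386 in pDC. After scaling these were 0.437, 0.292 and 1.15 CPM in cDC1, 1.05, 1.44 and 1.28 CPM in cDC2, and 9.75, 11.96 and 22.7 CPM in pDC. The pDC libraries were clear of the others, and replicate 3 was the highest library in both cDC1 and pDC. Id3 was 25.0-fold higher in pDC than in cDC1 (log2 4.65 ± 0.53, edgeR adjusted p = 6.11e-05) and 11.8-fold higher than in cDC2 (3.56 ± 0.49, adjusted p = 0.000225). The conventional subsets overlapped (1.09 ± 0.53, edgeR adjusted p = 0.176). That difference passed with the replicate block (1.19, adjusted p = 0.0466), without cDC1 replicate 3 (1.73, adjusted p = 0.0381) and without all replicate 3 libraries (1.71, adjusted p = 0.00732).

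Id2, which encodes the Id protein that conventional DC use, ran the other way. Its level was 429, 433 and 601 CPM in cDC1, 192, 203 and 243 in cDC2, and 10.02, 4.82 and 10.3 in pDC. Every step between subsets passed the test, with log2 fold changes of -5.86 from cDC1 to pDC (edgeR adjusted p = 3.84e-07), -4.66 from cDC2 to pDC (1.14e-06) and -1.20 from cDC1 to cDC2 (0.00635). Per kilobase, Id2 was 99.7% ± 0.22 of the summed Id1 to Id4 level in cDC1 and 98.5% ± 0.33 in cDC2. In pDC it was 42.5%, 22.6% and 24.2% in replicates 1, 2 and 3, where Id3 took 56.3%, 76.4% and 73.1%. Id3 was thus the larger part of a small Id pool, since the summed Id level was 11.9 ± 4.73 CPM per kilobase in pDC against 201 ± 40.7 in cDC1 and 88.6 ± 11.5 in cDC2.

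The ratio of summed E protein to summed Id level per kilobase was 0.131, 0.134 and 0.0891 in cDC1, 0.306, 0.299 and 0.206 in cDC2, and 7.23, 9.06 and 3.71 in pDC. Subsets did not overlap, and replicate 3 was the lowest library of each. Within pDC, replicate 2 had the lowest Id2 and the highest ratio, and it was also the lowest pDC library for the macrophage genes Csf1r, Vcam1 and Cd5l. The part of transcripts from other cells in the ratio was not tested. Transcript ratios say nothing of how much of each protein was present. With the longest transcript as the length the mean ratios were 0.156, 0.353 and 12.2.

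**Figure D3:**
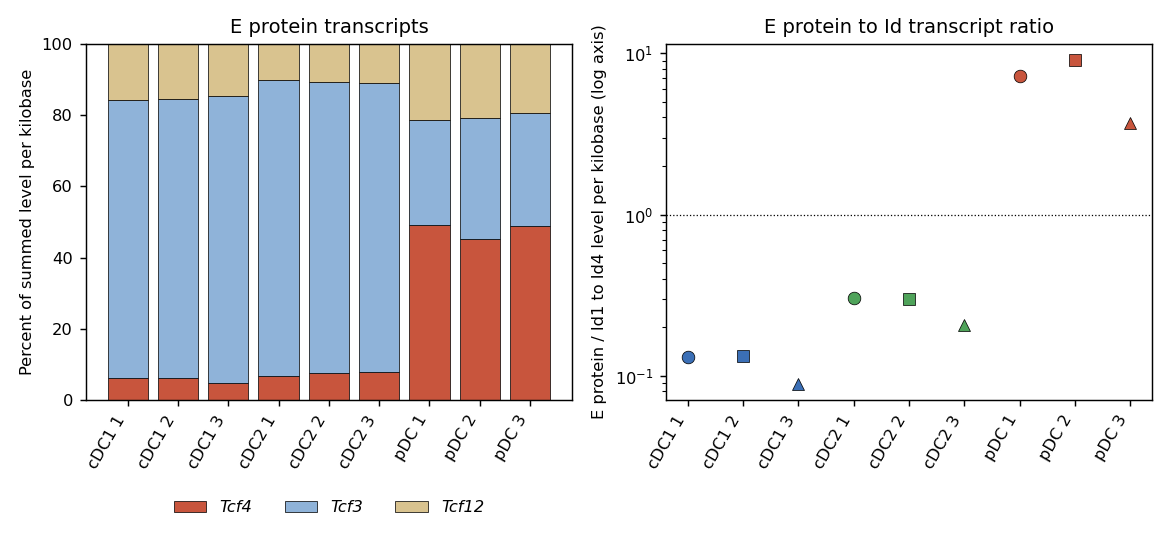
Left, share of Tcf4, Tcf3 and Tcf12 in their summed level per kilobase of exon, in percent, for each library. Right, ratio of that sum to the summed level of Id1, Id2, Id3 and Id4 on a log axis, with a dotted line at 1. The Tcf4 share is 4.89% to 7.85% in conventional libraries and 45.2% to 49.3% in pDC, and only pDC libraries lie above the dotted line.

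Other HLH genes showed no common direction. Of 12 listed, 8 were tested. In pDC 2 were higher and 2 lower than in cDC1, and 2 were higher and 4 lower than in cDC2, with list medians of 0.50 and -1.21 on the log2 scale. Of all genes tested, 24.3% were higher and 24.4% lower in pDC than in cDC1, and 22.5% and 23.3% than in cDC2. Bhlha15, known from secretory cells, was at 25.1, 27.5 and 27.4 CPM in pDC and at most 0.446 CPM elsewhere, and rose in both comparisons (edgeR adjusted p = 4.56e-06 and 4.93e-06). It rests on 0 to 14 reads in each conventional library. Hes6 rose by 1.26 and 1.20 (adjusted p = 0.000102 and 0.000156). Hes1, a Notch target and repressor, fell by 4.35 against cDC1 and by 5.07 against cDC2 (adjusted p = 2.87e-06 and 1.27e-06), from 14.1 to 31.2 CPM in conventional libraries to 0.507 to 1.30 in pDC. Bhlhe40 and Lyl1 were each higher in cDC2 than in both other subsets, with pDC lower than cDC2 by 1.46 and 0.97 (adjusted p = 0.0251 and 0.00395). Between pDC and cDC1 Lyl1 stood at 0.17 and Bhlhe40 at 0.83, and neither passed, but Bhlhe40 passed with the replicate block (0.99, edgeR adjusted p = 0.00888), which made 3 HLH genes higher. Tal1 (0.98 and 0.03 against cDC1 and cDC2) and Id1 (-0.68 and -1.49) did not pass in either comparison.

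Spib (chromosome 7, 44525993 to 44532071, minus strand; ENSMUSG00000008193), whose promoter is printed above, was the most abundant member in pDC per kilobase of exon. Its level was 1401, 1307 and 1570 CPM in pDC, 165, 125 and 163 in cDC2, and 42.9, 29.9 and 43.7 in cDC1. No subsets overlapped, and replicate 2 was the lowest library in every subset. Spib was 36.7-fold higher in pDC than in cDC1 (log2 5.20 ± 0.20, edgeR adjusted p = 6.16e-08), 9.43-fold higher than in cDC2 (3.24 ± 0.18, adjusted p = 5.00e-07), and 3.90-fold higher in cDC2 than in cDC1 (1.96 ± 0.17, adjusted p = 3.44e-05). Per kilobase its pDC level was 497 CPM, above that of 99.1% of the 13683 genes with a length.

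Spi1 had the reverse order between pDC and the rest. It was at 457, 440 and 430 CPM in cDC1, 606, 543 and 582 in cDC2, and 111, 109 and 130 in pDC. In pDC it was lower by 1.92 than in cDC1 and by 2.31 than in cDC2 on the log2 scale (edgeR adjusted p = 3.45e-07 and 1.57e-07), and in cDC2 it was higher than in cDC1 by 0.38 (0.0159). Per kilobase, Spi1 exceeded Spib by 11.3, 15.6 and 10.5 times in cDC1 and by 3.91, 4.61 and 3.79 times in cDC2. In pDC the ratio of Spib to Spi1 was 11.9, 11.3 and 11.4. Both related factors were therefore present in cDC2 at a ratio between those of the other subsets.

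**Figure D4:**
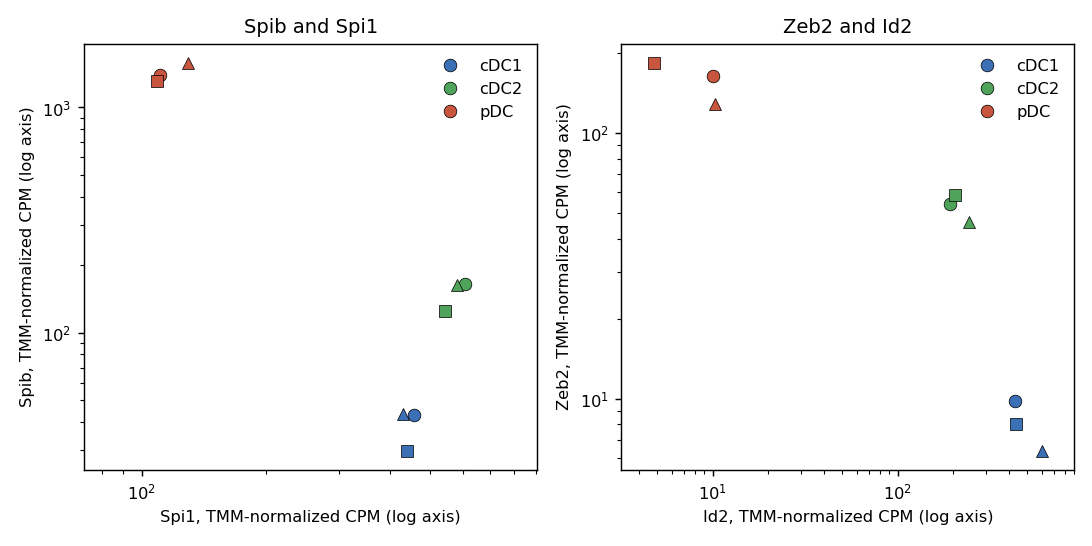
Levels of Spib against Spi1 (left) and of Zeb2 against Id2 (right) in the 9 libraries, in TMM-normalized CPM on log axes, with shapes for replicates 1 (circle), 2 (square) and 3 (triangle). In both panels pDC lie at the upper left and cDC1 at the lower right, and cDC2 lie between them in Spib, Zeb2 and Id2 but have the highest Spi1.

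Ets1 (chromosome 9, 32636221 to 32757820, plus strand; ENSMUSG00000032035), an ETS factor known mostly from lymphocytes, had the largest estimated difference between pDC and cDC1 of the 9 members, just ahead of Spib. Its level was 245, 243 and 185 CPM in pDC, 20.4, 24.6 and 19.0 in cDC2, and 5.65, 5.34 and 5.89 in cDC1. The subsets were clear of each other, and the cDC1 libraries lay within 1 CPM of each other. Ets1 was 39.9-fold higher in pDC than in cDC1 (log2 5.32 ± 0.17, edgeR adjusted p = 3.35e-08), 10.5-fold higher than in cDC2 (3.39 ± 0.15, adjusted p = 1.76e-07) and 3.80-fold higher in cDC2 than in cDC1 (1.93 ± 0.15, adjusted p = 2.08e-05). Of all genes tested, 3.84% differed more between pDC and cDC1.

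Of 15 other members of the ETS family 14 were tested. Against cDC1, 4 were higher and 4 lower in pDC with a list median of 0.14, where 24.3% of all genes were called higher and 24.4% lower. The larger rises were Elk3 at 0.98 and Elf1 at 0.73 (edgeR adjusted p = 0.00127 and 0.000331), and the larger falls were Spi1 and Etv3, at -1.92 and -1.81 (3.45e-07 and 4.19e-06). With the replicate block 7 were higher and 4 lower. Against cDC2, 2 were higher and 7 lower, with a median of -0.40 (22.5% and 23.3% of all genes). Etv3 stood at -2.52 and Elk3 at -1.21 there (adjusted p = 6.08e-07 and 0.000341). The 2 higher became 0 without cDC2 replicate 1, and 1 without cDC1 replicate 1, cDC2 replicate 3 or any pDC library. In cDC2, 6 were higher than in cDC1 and 0 lower (also 0 at an unadjusted p under 0.05 in edgeR, and with DESeq2 and limma-voom), beside 12.7% and 11.7% of all genes. Elk3 was 2.19 higher in cDC2 (adjusted p = 2.66e-05). With the replicate block 8 were higher. The 6 became 2 without cDC1 replicate 2 or cDC2 replicate 1 and 3 without cDC1 replicate 3 or cDC2 replicate 3, and 1 was lower without pDC replicate 3.

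Bcl11a (chromosome 11, 24078056 to 24174123, plus strand; ENSMUSG00000000861), the zinc finger factor also known from B cells and globin switching, had the mildest of the graded patterns. Its level was 79.8, 80.7 and 68.0 CPM in cDC1, 104, 118 and 119 in cDC2, and 266, 287 and 301 in pDC. No subsets overlapped. The pDC level was 3.74-fold that of cDC1 (log2 1.90 ± 0.11, edgeR adjusted p = 7.24e-07) and 2.51-fold that of cDC2 (1.33 ± 0.11, adjusted p = 6.86e-06), and cDC2 stood 1.49-fold above cDC1 (0.57 ± 0.11, adjusted p = 0.00352).

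Zeb2 (chromosome 2, 44983632 to 45117395, minus strand; ENSMUSG00000026872), a zinc finger repressor, had the largest difference between the conventional subsets of the 9 members. Its level was 9.76, 8.01 and 6.37 CPM in cDC1, 54.1, 58.6 and 46.3 in cDC2, and 164, 183 and 128 in pDC. Subsets did not overlap, and replicate 3 was the lowest library of each. Zeb2 was 19.6-fold higher in pDC than in cDC1 (log2 4.29 ± 0.21, edgeR adjusted p = 2.02e-07) and 2.99-fold higher than in cDC2 (1.58 ± 0.18, adjusted p = 6.70e-05). Between cDC2 and cDC1 the difference was 6.54-fold (2.71 ± 0.19, adjusted p = 1.09e-05), and 4.47% of all genes differed more. Set against Id2, which Zeb2 is known to repress, the subsets stood in opposite order. Cbfa2t3, also named above as a repressor of Id2, was lowest in pDC, where Id2 was lowest as well.

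A gene antisense to Zeb2 had almost the same profile. Gm13476, named Zeb2os in GENCODE M21 and lying across exons at the 5′ end of Zeb2, was at 1.38, 1.42 and 2.17 CPM in cDC1, 14.7, 13.7 and 13.1 in cDC2, and 40.5, 36.0 and 34.5 in pDC. Its counts were 14.2% to 34.0% of those of Zeb2 in the same library. The libraries were stranded, but the strand setting of the count is not given in the sources used here, so reads of the pair cannot be told apart. Exons of other genes cover 3.30% of the Zeb2 exon bases, which bounds the shared stretch. Antisense genes also overlap Cbfa2t3 (Gm10612, 0 to 59 counts) and Bcl11a (4930538E20Rik, 0 counts in all 9 libraries). Exons of other genes cover 3.52% of the Cbfa2t3 exon bases and 2.4% of those of Bcl11a. No 75-base stretch of a member's transcripts was found in a transcript of another gene in the same orientation. That search did not read the opposite strand, so it does not cover these antisense overlaps.

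Cbfa2t3 (chromosome 8, 122625141 to 122699109, minus strand; ENSMUSG00000006362), a co-repressor that acts with E proteins, was the only member lower in pDC. Its level was 106, 99.2 and 77.4 CPM in pDC, 196, 214 and 125 in cDC1, and 218, 233 and 165 in cDC2. All pDC libraries lay below the lowest conventional library, and replicate 3 was the lowest in each subset. The pDC level was lower by 0.92 ± 0.22 than in cDC1 on the log2 scale, a 1.90-fold difference (edgeR adjusted p = 0.00550), and by 1.12 ± 0.22 than in cDC2, a 2.18-fold difference (adjusted p = 0.00196). The conventional subsets overlapped at 0.20 ± 0.21 (edgeR adjusted p = 0.573), and without cDC1 replicate 3 that value was -0.03. Per kilobase of exon its mean level was 21.3 CPM in cDC1 and 11.2 CPM in pDC.

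The tested relatives of Zeb2 and Cbfa2t3 did not follow them, and Bcl11b, the listed relative of Bcl11a, had too few reads for a test. Of 4 relatives listed for these 3 factors, 2 were tested. Cbfa2t2 lay between 13.2 and 19.9 CPM in all libraries and did not pass (0.26 and 0.09 on the log2 scale against cDC1 and cDC2, edgeR adjusted p = 0.290 and 0.723). Zeb1 was at 25.6, 25.9 and 27.0 CPM in pDC, 44.0, 48.4 and 35.2 in cDC2, and 43.1, 46.5 and 24.1 in cDC1. It was lower in pDC than in cDC2 by 0.70 (edgeR adjusted p = 0.0286), a call lost without cDC2 replicate 1 or 2 or without any pDC library. Against cDC1 its difference was -0.54 (edgeR adjusted p = 0.0748), and 1 relative was called lower there with the replicate block, without cDC1 replicate 3 and without all replicate 3 libraries, where 1 was also called higher. Runx1t1 had 0 counts in all libraries, and Bcl11b had 0 to 18.

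The order of the members within a subset, per kilobase of exon, changed with the subset. Cbfa2t3 at 21.3 CPM and Tcf3 at 18.1 led in cDC1, where their libraries overlapped, and Spib at 52.8 led in cDC2, followed by Cbfa2t3 at 24.5 and Tcf3 at 19.3, which again overlapped. In pDC, Spib at 497 was followed by Tcf4 at 33.9 and Ets1 at 26.4, with Tcf3 at 22.7 and Bcl11a at 21.6 close behind and overlapping with Ets1. Id3 at 8.27 and Zeb2 at 7.95 came last in pDC without separating from each other. In cDC1, Id3 at 0.350 and Zeb2 at 0.403 were the lowest, and their libraries overlapped there too. Part of this order depends on the length used. Per kilobase of the longest transcript, Tcf3 at 24.8 CPM stood above Cbfa2t3 at 23.35 in cDC1. In pDC, Bcl11a at 47.5 then stood above Ets1 at 44.1, and Cbfa2t3 at 12.3 and Id3 at 11.6 came last. Spib stayed first in pDC and cDC2 on both scales, and Tcf4 second in pDC. Tcf4 stood above 28.0% of genes in cDC1, 30.4% in cDC2 and 87.7% in pDC.

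Genes known for pDC and for conventional DC framed these differences. Of 20 genes of the pDC program 19 were tested, and all 19 were higher in pDC than in each conventional subset, with medians of 5.42 and 5.88. The largest rises were Klk1, a kallikrein, at 9.14 and Dntt, the terminal transferase of lymphocyte receptor diversity, at 8.88 (edgeR adjusted p = 1.60e-06 and 1.81e-06). Of 14 genes of the conventional program, 11 were lower and 2 higher in pDC than in cDC1, and 10 were lower and none higher than in cDC2 (also 0 at an unadjusted p under 0.05 in edgeR, and with DESeq2 and limma-voom), with medians of -1.43 and -1.01. Batf3 and Zbtb46, regulators of conventional DC, fell by 5.87 and 3.67 (adjusted p = 5.78e-07 and 7.00e-06). The 2 that rose against cDC1 were Irf4 at 1.82 and Klf4 at 1.18, both known in cDC2 (adjusted p = 1.05e-05 and 0.000432). In cDC2 against cDC1, 4 pDC program genes were higher and 6 lower, and 4 conventional program genes were higher and 3 lower, where 6 were lower without replicate 3.

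In cDC2, the 7 members that rose in pDC kept more transcript relative to pDC than the 8 pDC markers did, a contrast that depends on the markers chosen. The mean cDC2 level was 5.13% of the pDC level for Tcf4, 8.47% for Id3, 9.52% for Ets1, 10.6% for Spib, 17.0% for Tcf12, 33.4% for Zeb2 and 39.9% for Bcl11a. For the 8 pDC markers it was between 0.269% (Ly6d) and 3.09% (Klra17). In cDC1 the range was 2.51% (Ets1) to 26.8% (Bcl11a) for the same 7 members and 0.177% (Klk1) to 3.81% (Ccr9) for the markers, so the ranges overlapped there. Other genes of the pDC program varied widely. Tlr9 averaged 116 CPM in cDC2 and 287 in pDC, and Irf7 128 and 523. Dntt averaged 1.19 CPM in cDC2 and 366 in pDC, and Atp1b1 9.44 and 1062. A high level in cDC2 relative to pDC was thus not particular to the members.

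Genes with the profile most like a member were sought by the root mean square difference of centred log2(CPM + 1) over the 9 libraries, among 9626 genes. Closest to Tcf4 were Ephb2 at 0.13, Itsn1 at 0.18 and Rell1 at 0.19. Rell1 averaged 580 CPM in pDC against 38.9 in cDC2 and 26.2 in cDC1. The nearest to Zeb2 were Gpr162 at 0.23, Fam65b at 0.24 and Gm13476 at 0.29. For Ets1 these were Lrp8 at 0.23, Ceacam1 at 0.23 and, of all genes, its fellow member Spib at 0.29. A like profile over 3 subsets is shared by many genes and is a description only.

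Several members are also expressed by lymphocytes, so markers of other cells were read beside them. The B cell markers Pax5 and Ebf1 were at 0 to 0.405 and 0 to 0.456 CPM over the 9 libraries, and Cd79a reached 4.11 CPM in pDC. The 10 B cell markers summed to 115 to 127 CPM in cDC1, 276 to 293 in cDC2 and 314 to 452 in pDC, where Fcrla alone averaged 267. Of the 7 tested, 5 were higher in pDC than in cDC1 (Blk at 3.47, Cd79a at 3.37, Cd79b at 3.12, Fcrla at 2.61 and Fcer2a at 1.52 on the log2 scale) and 2 lower. Against cDC2, 2 were higher and 3 lower in pDC, and cDC2 had 4 higher and 2 lower than cDC1. T cell Cd3e was at 0 to 0.943 CPM, and 10 T cell markers summed to 35.3 to 48.6 CPM in cDC1, 172 to 202 in cDC2 and 257 to 286 in pDC, 231 of it Il7r on average. Of the 9 tested, 3 were higher in pDC than in cDC1 (Il7r at 5.29, Thy1 at 4.296 and Lat at 3.75) and 1 lower. Against cDC2, 3 were higher and 3 lower in pDC, and cDC2 exceeded cDC1 for 4. The part of these lists in the members' differences was not tested.

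Plasma cell, monocyte and NK lists were less even. The 7 plasma cell genes summed to 130 to 155 CPM in cDC1, 170 to 182 in cDC2 and 798 to 1071 in pDC, with Xbp1 at 354 and Igj (Jchain) at 338 on average, and 5 of 6 tested were higher in pDC than in cDC1. Against cDC2, 4 were higher and 1 lower in pDC (2 lower with the replicate block), and cDC2 had 3 higher and 1 lower than cDC1. The 10 macrophage and monocyte markers summed to 214 to 358, 947 to 1229 and 2260 to 3285 CPM, of which Ly6c2 made up 2226 in pDC, and 2 of 10 were higher in pDC than in cDC1. Against cDC2, 2 were higher and 3 lower in pDC (6 lower with the replicate block), and cDC2 exceeded cDC1 for 6. The sum hides a split within pDC. Csf1r was at 70.4, 20.4 and 89.1 CPM in pDC replicates 1, 2 and 3, Vcam1 at 44.9, 8.06 and 48.1, and Cd5l at 15.9, 2.13 and 18.2. Ly6c2 varied less, at 2008, 1955 and 2715 CPM. The 8 NK cell markers summed to 11.9 to 39.7, 28.5 to 120 and 13.2 to 49.96 CPM, with replicate 3 highest in each subset, and 0 of 8 passed between pDC and cDC1 in edgeR, DESeq2 or limma-voom, or at an unadjusted p under 0.05 in edgeR. With the replicate block 1 passed there, Gzma at 0.56 (edgeR adjusted p = 0.0495). Of these 8, 3 were lower in pDC than in cDC2 and 1 was higher in cDC2 than in cDC1, and the block gave 6 in each case. Their part in the members' differences was not tested.

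Because replicate 3 stood apart, its libraries were compared with replicates 1 and 2 across all 3 subsets in the edgeR fit with the replicate block, a comparison chosen after its values were seen. Of the 9 members, 3 were lower in replicate 3 and none was higher, where 12.1% of all genes were lower and 10.9% higher. At an unadjusted p under 0.05 in edgeR, 5 were lower and 2 higher, and the share of all genes at that threshold was not counted. Cbfa2t3 was lower by 0.52 ± 0.07 on the log2 scale (adjusted p = 0.00185), Zeb2 by 0.39 ± 0.09 (0.0157) and Tcf12 by 0.22 ± 0.06 (0.0345). For Cbfa2t3 the difference was -0.41 in pDC, -0.45 in cDC2 and -0.71 in cDC1, and for Zeb2 it was -0.43, -0.28 and -0.48. The Tcf12 call was lost with RLE factors (adjusted p = 0.0501) and with upper quartile factors (0.0610).

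The other members did not pass in that comparison. Spib stood at 0.22 (edgeR adjusted p = 0.0503), Tcf4 at -0.22 (0.0506), Id3 at 0.89 (0.0662), Ets1 at -0.24 (0.127), Tcf3 at -0.18 (0.157) and Bcl11a at 0.01 (0.964). Spib was higher in replicate 3 in each subset, by 0.21 in pDC, 0.17 in cDC2 and 0.27 in cDC1. Id3 was higher by 1.66 in cDC1 and 1.07 in pDC but by 0.04 in cDC2. The limma-voom method called 2 higher (Spib and Id3) and 5 lower (Tcf4, Tcf12, Zeb2, Cbfa2t3 and Ets1). The share of all genes called by that method was not counted. Within every replicate number, the pDC library was above both conventional libraries for 8 members and below both for Cbfa2t3. These 8 include Tcf3, which did not pass the test in the fit without the block. The share of all genes with this pattern was not counted. A stricter pattern, with every pDC library above or below all conventional libraries, held for 21.3% and 20.0% of all genes. Immediate-early transcripts and depth moved with replicate 3, and their part in these differences was not tested.

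**Figure D5:**
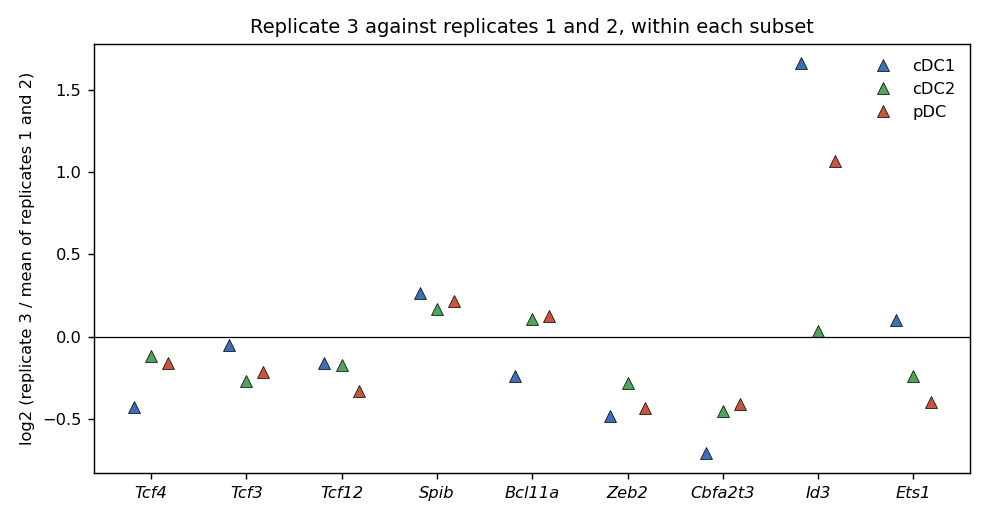
Log2 ratio of replicate 3 to the mean of replicates 1 and 2 for each member, within cDC1 (blue), cDC2 (green) and pDC (red). Each point is 1 library against the mean of 2, so a point has no error of its own. Cbfa2t3, Zeb2, Tcf12, Tcf4 and Tcf3 lie below 0 in all 3 subsets and Spib above 0 in all 3, and Id3 is highest in cDC1 at 1.66.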

How the data were processed

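RNA was sequenced from 9 libraries, 3 each of cDC1, cDC2 and pDC from mouse spleen. The authors deposited raw read counts per gene, without normalization. Per the labels, the submitters' processing notes name STAR, SAMtools, MultiQC, featureCounts and mm10. Their versions, the annotation and the strand setting of the count are not given in the sources used here. The study's methods name Degust and no statistical model.

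The fit was made with edgeR 4.0.16 in R 4.3.3 on the 13819 of 39179 genes that passed filterByExpr at a minimum count of 10. Libraries were scaled by TMM, the subset was the only term, and each contrast had a quasi-likelihood test with Benjamini-Hochberg adjustment over the genes tested and a threshold of 0.05. The test was tried on simulated data. Replicate numbers come from the labels, where a number carries the same date code in every subset. Deviations from the subset means correlated at 0.266 to 0.543 over all 9 same-numbered pairs, so the numbers pair the libraries. Libraries of the same subset were further apart than sampling noise allows (chi-square per degree of freedom 9.93 to 64.4), and p-values measure the spread between these pools. Gene positions and lengths come from GENCODE M21 on GRCm38, which held 95.99% of the genes listed. Promoter windows are RefSeq's, on GRCm38.p6. Levels per kilobase used the union of a gene's exons.

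The members and gene lists were chosen with earlier results of these data known. Named were every member, every tested HLH partner and corepressor relative, Spi1 and the 2 largest rises and falls of the ETS, pDC and conventional programs between pDC and cDC1, defining markers, and the 3 nearest profiles of Tcf4, Zeb2 and Ets1 with at least 10 CPM in the highest subset. The comparison of replicate 3 with its alternatives, the levels relative to pDC, the leading genes of the other-cell lists and the antisense genes were chosen after values were seen. Alternatives were the replicate block, DESeq2 1.42.0, limma-voom (limma 3.58.1), RLE factors, library size only, upper quartile factors, no filter, a filter of 10 counts per library, fits of 6 libraries, a log2 difference of 1 or more, the longest transcript as the length, and leaving out each library or all replicate 3 libraries. Python 3.11.15 with matplotlib 3.10.9 drew the figures. The values of 1 listed gene are not reported here.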

Additional observations from a re-analysis of the deposited data

How the results depend on the processing

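Of 27 comparisons of a member between subsets, 22 kept their direction and their side of the threshold in every alternative run (19 each, or 18 for Id3, which has too few reads for the filter of 10 counts in every library). With the replicate block, which pairs same-numbered libraries, the members higher in pDC than in cDC1 numbered 8 and those higher in cDC2 than in cDC1 numbered 6, through Tcf3 (edgeR adjusted p = 0.0172), Tcf4 (0.00570) and Id3 (0.0466), and no other call of a member changed. Shares of all genes called between subsets were counted only in the fit of all 9 libraries without the block. Counts of members or list genes in the alternatives therefore have no such share beside them. Tcf4 in cDC2 against cDC1 also passed with DESeq2 (0.38), library size only (0.49) and the filter of 10 counts in every library (0.40), and Tcf3 in pDC against cDC1 with library size only (0.42). Tcf12 in cDC2 against cDC1 did not pass with library size only (-0.39), a scaling that moves the median of all genes in that comparison to 0.137 and the share of calls that are higher from 52.2% to 63.1%. The count of members lower in cDC2 than in cDC1 was then 0. It was 0 to 1 when single libraries were left out and 0 where a log2 difference of 1 or more was required, under which the count lower in pDC than in cDC1 was 0 as well. Cbfa2t3 in cDC2 against cDC1, which was not called, ran from -0.028 (without cDC1 replicate 3) to 0.35 when single libraries were left out. In replicate 3, limma-voom gave 2 members higher and 5 lower, and RLE and upper quartile factors 1 higher each (Spib). Shares of all genes in replicate 3 were not counted for these 3 settings. With the longest transcript as the length, shares of the E protein level in cDC1, cDC2 and pDC were 11.2%, 14.6% and 61.9% for Tcf4, 65.9%, 69.4% and 17.7% for Tcf3, and 22.9% and 16% in cDC1 and cDC2 for Tcf12, and the ratio to Id transcripts was 0.156, 0.353 and 12.2. Of 30 counts over gene lists, 10 moved by over 1.5 times in some alternative. Depth limits Id3 most, with 7 to 41 reads in conventional libraries. The cause of these changes was not tested.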
